A study of Mus musculus with 4 samples.

Results

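The genes of the cytosolic ribosomal proteins were read on exon arrays of NMuMG, an epithelial line from the mammary gland of the mouse, after recombinant human TGF-beta1 (1 ng/ml, 24 h) and without treatment. Members were all rows whose single gene symbol was Rpl, Rps or Rplp directly followed by digits and at most 1 letter (a, l or x), without the Rps6k kinases. This rule found 19 of 23332 gene-level transcript clusters and 402 of 229581 exon-level probesets, each of which covers an exon or a part of one. Together they stood for 66 genes, of which 18 had rows at both array levels. The RefSeq table lists 80 protein-coding symbols of this form, and 64 of them had a member row. Both groups grew in the same medium with serum and insulin, and each group had 1 array, deposited as a gene-level and an exon-level column. No difference below therefore has a replicate check or a test, and a standard deviation (SD) over probesets describes how parts of 1 transcript differ, not how cultures do.

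Ribosomal proteins are the protein part of the cytosolic ribosome: Rps proteins build the small subunit, which decodes mRNA, and Rpl proteins the large subunit, which joins amino acids. The stalk proteins Rplp0, Rplp1 and Rplp2 sit on the large subunit and recruit the factors that drive translation. The mRNAs of this family are among the most abundant of a cell, carry a pyrimidine stretch at the cap (a TOP sequence) through which mTORC1 and Larp1 adjust their translation, and have many processed pseudogenes. Signal of near-identical copies cannot be separated from that of the parent gene, so each value below is uncertain in that respect.

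RefSeq start sites (GRCm38.p6) were found for 51 of the 66 genes. They are shown because the sequence at the start was not used to choose the members. Each line gives 10 bases before the annotated start and 20 from it on, 5′ to 3′, with the longest run of C and T in capitals.
Rps6 (chr4:86857348-86857377, minus strand): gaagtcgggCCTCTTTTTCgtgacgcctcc
Rpl28 (chr7:4792955-4792984, plus strand): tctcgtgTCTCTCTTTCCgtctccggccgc
Rpl35 (chr2:39005112-39005141, minus strand): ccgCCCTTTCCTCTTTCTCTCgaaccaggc
Rpl35a (chr16:33056472-33056501, plus strand): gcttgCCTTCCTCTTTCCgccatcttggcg
Rps27 (chr3:90213629-90213658, minus strand): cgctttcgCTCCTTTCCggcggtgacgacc
Rpl37 (chr15:5116603-5116632, plus strand): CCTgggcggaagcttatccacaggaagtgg
Rpl3l (chr17:24727816-24727845, plus strand): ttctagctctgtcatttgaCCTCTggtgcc
A run of at least 8 C or T lay in this window in 19 of 51 members (37.3%), against 13.1% of 17491 protein-coding genes. Rpl37 and the muscle paralog Rpl3l are shown as members without such a run. The annotated start itself was a C in 16 of 51 members (31.4%) and 16.1% of all genes, so most members lacked either feature. Within the whole 300-base window, and on either strand, CCGGAAG, a core letter string of ETS-family factors such as GABP, was found in 41.2% of members and 12.9% of all genes, and GCCATNTT, the string of the factor YY1, in 21.6% and 7.46%. The string TATAAA was in 9.8% of members and 14.8% of all genes, and each string was counted on its own, whether or not it overlapped another. These are matches of letters, not shown sites. The median difference in expression was −0.15 for 19 members with the C and T run and −0.16 for 29 without.

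The arrays carried the label of the line in part. Of 10 epithelial markers with a gene-level cluster, 7 were at level. This means that the brighter of the 2 arrays reached the median intensity of the table, which was 124.5 at gene level and 264.5 at exon level. Keratin Krt18 had an intensity of 9785 with TGF-beta and 8494 in untreated cells, and E-cadherin (Cdh1) 1698 and 4153, but Epcam, with 62.2 and 68.5, was not at level. The epithelial sum was 14279 with TGF-beta and 18869 in untreated cells, but its members went both ways. Of the 7 at level, 4 were lower with TGF-beta. Krt19 had 578 with TGF-beta and 4612 in untreated cells and so weighed most in the lower sum, while Cldn4 had 1530 and 241. Fibronectin (Fn1), a known target of TGF-beta, had 7731 and 1013. Of the markers of other cell types, 2 of 8 for fibroblasts, 1 of 6 for immune cells, 0 of 5 for endothelium and 1 of 4 for adipocytes were at level. Summed intensities with TGF-beta and in untreated cells were 1041 and 625 for fibroblast, 512 and 545 for immune, 244 and 176 for endothelial and 318 and 208 for adipocyte markers. The leukocyte marker Ptprc had 16.6 and 16.9; no marker was at 0. The part of other cells in the values below was not tested, and fewer cells of a type cannot be told apart from less RNA per cell.

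At exon level, the ribosomal protein genes lay close together and, as deposited, slightly below their untreated values, a direction that centring turned. Probesets at level were found for 61 of 65 genes (348 of 402 probesets), and the value of a gene is the median log2 difference of these, TGF-beta minus untreated, on log2(intensity + 1). Rpl21, Rps13, Rpl39l and Rpl3l had no probeset at level, and Rps4l had a gene-level row only. Of the 61 genes 49 had at least 3 probesets at level, 8 had 2 and 4 had 1. The median of the whole exon-level column was 239.5 with TGF-beta and 296.6 in untreated cells. The 61 medians had a median of −0.15, ran from −0.87 to 0.07 and lay below 0 in 57 genes, but after centring on the median difference of all probesets (−0.23) their median was 0.085 and 19 lay below 0. It stayed below 0 after quantile normalization (−0.10, 55 genes) and after removal of a lowess curve of difference on signal (−0.12, 53 genes). All 12715 genes with a probeset at level had a median of −0.13 as deposited, and 58.2% of them lay below 0. After centring their median was 0.11, with 42.0% below 0, so the distance of the members from all genes stayed at −0.02. The all-gene median was 0.0585 after quantile normalization (45.6% below 0) and 0.061 with the lowess curve taken out (45.4%). The members lay at a distance of −0.16 and −0.18 from these. Among genes with at least 3 probesets, 49 members had a median of −0.13 and all 9617 genes one of −0.24. The spread was narrow: the middle 50% of the members lay between −0.27 and −0.07, against −0.49 and 0.39 for all genes. With at least 3 probesets these ranges were −0.24 to −0.07 and −0.56 to 0.11. The contrast was smaller among bright probesets, which make up most of the members' probesets. With a mean intensity of 4000 or more, the middle 50% lay between −0.16 and −0.01 in members and −0.19 and 0.14 in all probesets.

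Few members were past a rule of size. At least 1.5-fold lower with TGF-beta were 7 of the 61 (beside 19.6% of all genes), and no member was 1.5-fold higher (all genes, 16.3%), 2-fold lower (7.08%) or 2-fold higher (4.62%). Among genes with at least 3 probesets, 3 of 49 members and 2245 of 9617 genes were 1.5-fold lower, and 0 and 875 were 1.5-fold higher. At like signal the order depended on the class. Below a mean intensity of 1000, 59.1% of member probesets were 1.5-fold lower, beside 37.7% of all. From 1000 to 4000 the shares were 21.1% and 16.4%, and above that 0% and 4.02%. The level rule lets in a probeset that is bright on 1 array only. Rpl9 was past 1.5-fold through such a probeset, at level in untreated cells alone. The probesets of 1 gene differed by a median SD of 0.23 in members and 0.33 in all genes. As deposited, all probesets at level were below 0 in 32 members, some of them with only 1 or 2 (all genes, 24.2%), and among genes with at least 3 probesets in 21 of 49 members (all genes, 25.8%). Taken singly, 293 of 348 member probesets lay below 0 as deposited (all probesets, 67.4%), 45 were at least 1.5-fold lower (27.4%), 1 was 1.5-fold higher (9.49%), 14 were at least 2-fold lower (11.6%) and none was 2-fold higher (3.55%).

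**Figure D1:**
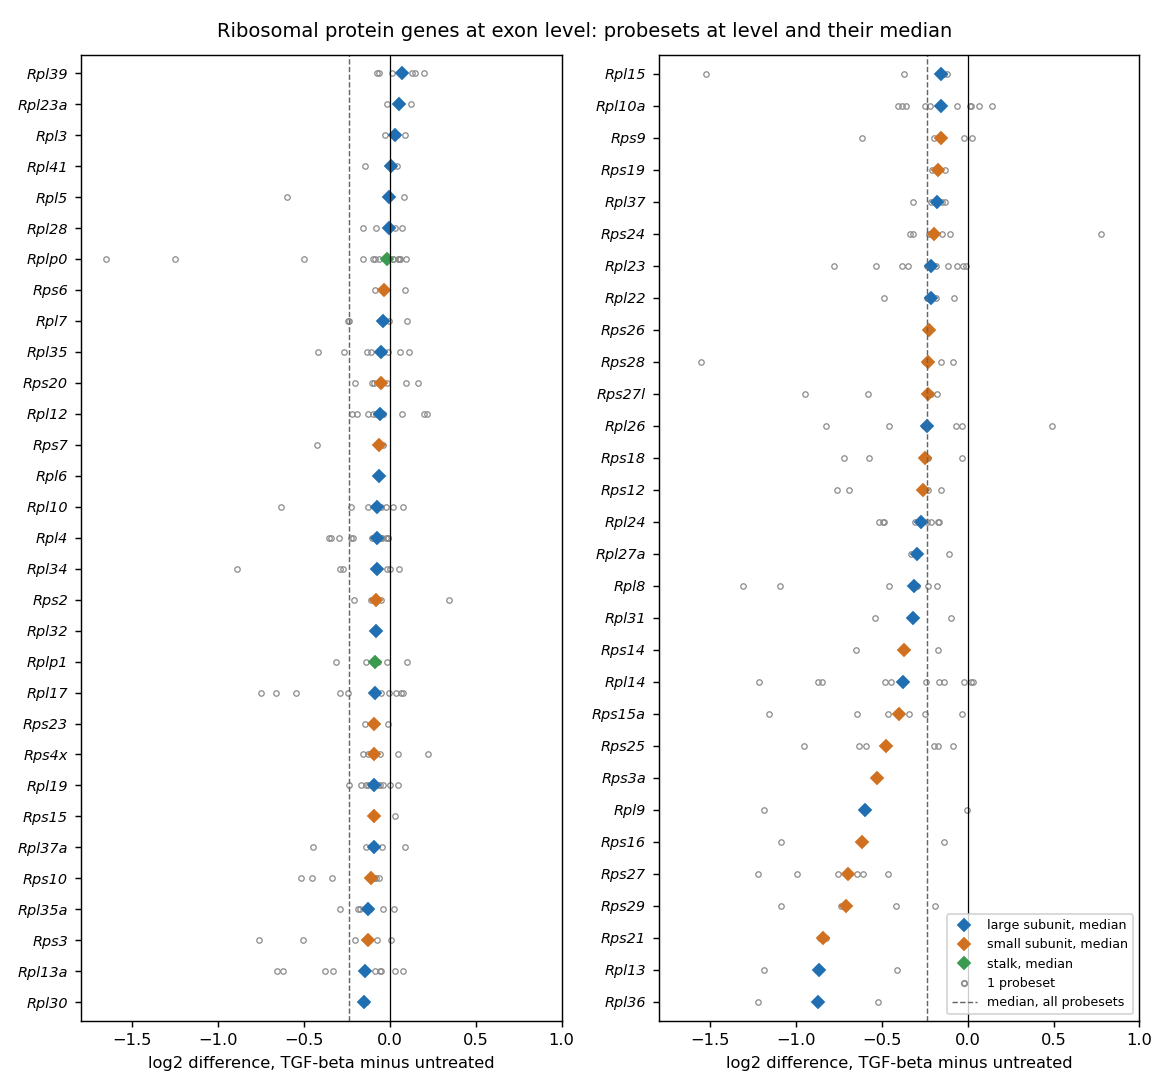
Log2 difference (TGF-beta minus untreated) of each probeset at level (open circles) and the median per gene (diamonds, coloured by subunit) for 61 ribosomal protein genes, sorted from the highest median (Rpl39, 0.07) to the lowest (Rpl36, −0.87). Most medians sit right of the dashed line at −0.23, the median of all probesets, and single probesets reach down to −1.65. Centring on that line would place 19 medians below 0, beside 42.0% of all genes.

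The stalk genes had a median of −0.05 as deposited and 0.18 after centring. Rplp0, the base of the stalk and a frequent reference gene, had 12 probesets with intensities of 5365 to 15716 with TGF-beta and 5743 to 15170.0 in untreated cells, and their differences ran from −0.16 to 0.09. Its other 4 probesets had 495, 258, 227 and 117 with TGF-beta, against 700.1, 616, 718 and 196 in untreated cells, differences of −0.50 to −1.65. The gene thus had a median of −0.02 with an SD of 0.52 over 15 probesets at level. Rplp1, which binds Rplp0 and the translation factors, differed by −0.08 ± 0.14 (SD, 6 probesets). Rplp2 had no row with a single symbol and was not analysed here.

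Among the 34 large subunit genes the median was −0.11 (0.12 after centring, −0.09 after quantile normalization). Rpl3, which reaches into the peptidyl transferase centre, had intensities of 13504, 8040, 9191 and 12077 over 4 probesets with TGF-beta and 13769, 7816, 9062 and 11374 in untreated cells. It was thus higher in 3 of 4 probesets, and the difference was 0.03 ± 0.05 (SD). Rpl39, in the wall of the exit tunnel, was the highest member as deposited at 0.07 ± 0.12 (6 probesets), but Rpl5 was highest after quantile normalization (0.16, beside 0.09 for Rpl39) and with the lowess curve taken out (0.17, beside 0.09). Rpl10, one of the last proteins to join the subunit, was at −0.07 ± 0.21 (9 probesets), and Rpl7 at −0.04 ± 0.13 (6 probesets). Rpl5, which binds the 5S ribosomal RNA, had 1732, 1513 and 287 with TGF-beta, against 1637, 1516 and 435 in untreated cells. Its probesets disagreed, with differences of 0.08, −0.0033 and −0.60. Its partner Rpl11 had no single-symbol row. Rpl13a, known in human cells also from a complex that silences inflammatory mRNAs, differed by −0.14 ± 0.25 over 11 probesets. Rpl13 and Rpl36 stood lowest. Rpl13 had 1384, 646 and 557 with TGF-beta, against 1844, 1179.9 and 1267 in untreated cells, so that each probeset was lower and the median was −0.87 ± 0.39 (SD). Rpl36 rested on 2 probesets, with 5772 and 474 with TGF-beta and 8304 and 1104 in untreated cells, and a median of −0.87 ± 0.49 (SD). These disagreed, at −0.52 and −1.22, and only the dimmer probeset was itself past 1.5-fold.

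The 25 small subunit genes had a median of −0.22, or 0.01 after centring and −0.17 after either quantile normalization or removal of the trend. All 25 lay below 0 as deposited (all genes, 58.2%). Their count below 0 after centring is not given, but the median was then above 0. Rps6, the substrate that names the S6 kinases, had 13503, 14439, 24667 and 10869 with TGF-beta and 14331, 14780, 23167 and 11095 in untreated cells. Its difference was −0.03 ± 0.07 (SD, 4 probesets), and 1 of the 4 was higher with TGF-beta. Rps3, at the mRNA entry of the subunit, differed by −0.13 ± 0.28 over 7 probesets. Rps14 and Rps19, both known from human anaemias when 1 copy is lost, differed by −0.37 ± 0.24 (3 probesets) and −0.17 ± 0.05 (2 probesets). Rps25, which some viral RNAs need to start translation, was at −0.48 ± 0.31 over 7 probesets, each of them lower.

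Of the 7 members past 1.5-fold, 4 were small subunit genes: Rps21, Rps29, Rps27 and Rps16. Like Rpl13, Rpl36 and Rpl9, they were named after their values were seen. Rps21 had 672 and 1617 with TGF-beta, against 1220.2 and 2870.1 in untreated cells, and its 2 probesets gave −0.86 and −0.83. Rps27, a zinc finger protein of the small subunit, had TGF-beta intensities of 2420, 3564, 2297, 1521, 1140.2 and 298 over 6 probesets, against 4091, 4926, 3587, 2319, 2277 and 694 in untreated cells. All 6 were lower, and the median was −0.70 ± 0.28 (SD). Rps29, another small zinc-binding protein, was at −0.71 ± 0.34 over 5 probesets. Like Rpl36, Rps16 and Rpl9 each rested on 2 probesets that disagreed. Those of Rps16 had 2135.5 and 8572 with TGF-beta, against 4544 and 9434 in untreated cells, and those of Rpl9 had 233 and 13637, against 532 and 13674. Under all 3 scalings Rpl13, Rpl36 and Rps21 stayed past 1.5-fold, at −0.60 or below. Only Rps21, Rps27 and Rps16 did so when probesets of a mean intensity under 1000 were left out.

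Paralogs were compared where both had rows. Rps27l, the near copy of Rps27, differed by −0.23 ± 0.33 (5 probesets), beside −0.70 for Rps27. Rpl3l, made in muscle, had 9 probesets and a cluster, none at level; its cluster had 35.04 with TGF-beta and 33.96 in untreated cells. Rpl39l, known from testis, had 13.8 and 13.9 and no probeset at level. The paralogs Rpl22l1 and Rpl7l1, whose longer symbols the rule left out, could be set beside their partners. Rpl22l1 had a median of −0.58 ± 0.48 (SD, 4 probesets) against −0.21 ± 0.17 for Rpl22 (4 probesets), and Rpl7l1 one of −0.19 ± 0.29 (9 probesets) against −0.04 for Rpl7. None of these pairs was tested. Rpl10l and Rpl36a had no single-symbol row and were not analysed here.

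The size of a probeset's difference moved with its signal. Among member probesets at level, 214 had a mean intensity of 4000 or more, a class that held 61.5% of them, against 8.18% of all probesets with 1 symbol. Their median difference was −0.08, beside −0.03 for all probesets of that class. The 90 member probesets between 1000 and 4000 had a median of −0.33, beside −0.16, and the 44 below 1000 one of −0.65, beside −0.38. The shares at least 1.5-fold lower were 0% of 214, 21.1% of 90 and 59.1% of 44 member probesets, against 4.02%, 16.4% and 37.7% of all probesets. With the lowess curve taken out the member medians were −0.10, −0.19 and −0.38, beside −0.018, −0.015 and −0.083 for all probesets of these classes. After centring the member median of the class of 4000 or more was 0.15, beside 0.20 for all probesets of that class. The class limits were chosen after the values were seen, and a mean and a difference of the same 2 arrays are not independent measures.

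**Figure D2:**
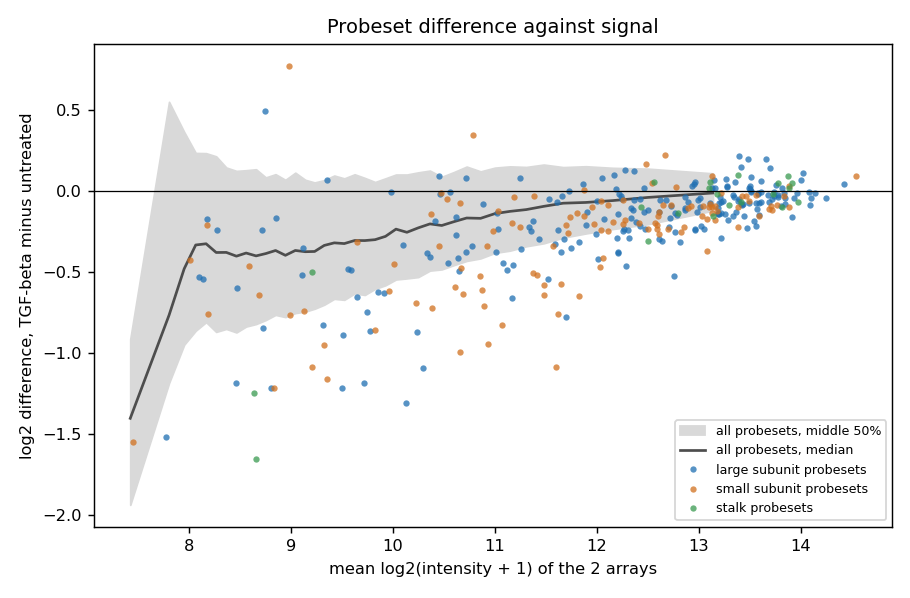
Log2 difference (TGF-beta minus untreated) of 348 member probesets at level against their mean log2(intensity + 1), coloured by subunit, over the median (line) and middle 50% (grey band) of all probesets at level with 1 symbol. Member probesets gather near 0 at the right and spread downwards to the left. At the right, 214 have a mean intensity of 4000 or more, with a median of −0.08 (all probesets, −0.03). After centring these medians are 0.15 and 0.20.

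The same order was seen inside single genes. Of 35 members with at least 5 probesets at level, 30 (85.7%) had a positive rank correlation of difference with signal over their own probesets, beside 87.2% of 8037 genes, and the median rho was 0.64 in members and 0.48 in all genes. These probesets share the arrays and the gene, so the values are descriptive. The probeset with the weakest signal was also the one with the lowest difference in 16 of 35 members (45.7%), beside 38.5% of all genes.

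Single probesets were also set against the median of the other probesets of their gene. Of 278 in 35 members, 5 departed by −1 or lower (all genes, 1.62%), in 4 genes, and none by 1 or higher (all genes, 2.02%). The level rule lets in a probeset that is bright on 1 array only, and 4 of the 5 reached it on the untreated array alone. With both arrays required at level, a rule chosen after the data were seen, 1 of 268 was at −1 or lower (0.373%, beside 0.347% for all genes), which was probeset 4847913 of Rpl8. In Rplp0, probeset 4965910 had 227 with TGF-beta and 718 in untreated cells, and 4848727 had 258 and 616, departures of −1.65 and −1.25. Probeset 4909608 of Rpl15 (129 and 371) departed by −1.37, 4574016 of Rps28 (101 and 299) by −1.33, and 4847913 of Rpl8 (708 and 1758) by −1.01. The sixth, 4473251 of Rpl14, had 292 and 679 and departed by −0.91. The intensities of all 6 with TGF-beta were below 1000. On the upper side, probeset 4561635 of Rps24 had 660 with TGF-beta and 386 in untreated cells, a difference of 0.77 beside −0.21 for the other 6 probesets. Rps24 is known for alternative exons near its 3′ end; the part of the transcript that this probeset covers is not given in the sources used here. Probeset 5177248 of Rpl26 followed (507 and 360.0, a departure of 0.73), then 4343435 of Rps29 (4286 and 4896, 0.53), 4720549 of Rps25 (0.45), 4455811 of Rps15a (0.43) and 4305034 of Rpl14 (0.41). The last 4 themselves differed by −0.19, −0.09, −0.03 and 0.03, and stood apart because the rest of their gene was lower.

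At gene level, 14 of the 19 clusters were at level. Their median difference was −0.22, from −2.42 to 0.66, and 13 of 14 lay below 0, beside a median of −0.27 over 9164 genes at level, of which 72.3% lay below 0. After centring the member median was 0.055 and 6 of 14 lay below 0, beside −0.0015 and 50.2% for all genes. At least 2-fold lower were 2 clusters, Rpl37 and Rpl4 (all genes, 8.7%), and the same 2 were the clusters at least 1.5-fold lower (25.3%). Both were at level through the untreated array alone (194 and 155, beside 35.5 and 38.4 with TGF-beta). The low end of the range and these counts therefore rest on the level rule. With the mean of the 2 arrays as the rule both dropped out, and the 12 clusters left had a median of −0.20. The 1 cluster at least 1.5-fold higher (6.25%) was Rps4l, a transcribed pseudogene by RefSeq, with 299 with TGF-beta and 188 in untreated cells, and none was 2-fold higher (2.29%).

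The 2 array levels differed for several of these genes. In 7 of 18 members with both levels (38.9%), the 2 values of the cluster were identical to those of 1 single probeset of the gene, which was so for 3.98% of 12844 genes, and for 1.26% of the 12180 genes with at least 3 probesets. These were Rpl37, Rpl4, Rpl23, Rpl35a, Rps18, Rps20 and Rps27l. For them the gene-level difference is that of 1 probeset, and both levels held the same array values.

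Rpl37 showed the widest gap. Its cluster, equal to probeset 4805350, had 35.5 with TGF-beta and 194 in untreated cells, a difference of −2.42. The other 4 probesets had 3248 to 8924 and 4044 to 9796, and differed by only −0.32 to −0.13, with a median of −0.18 ± 0.08 (SD). The cluster of Rpl4, a protein of the exit tunnel wall, equalled probeset 5047915, with 38.4 and 155 and a difference of −1.99. Its 13 other probesets lay between −0.35 and −0.01, with a median of −0.07 ± 0.13. Both clusters reached the level rule on the untreated array alone. The cluster of Rps18, equal to probeset 4709788 and not at level, went the other way: it had 62.8 with TGF-beta and 39.0 in untreated cells (0.67), while its 5 probesets at level were all lower, at −0.25 ± 0.28.

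In the other 4 of these genes the cluster was lower than the probeset median or equal to it, by 0.15 at most. Clusters of Rpl23 (492 and 627), Rps20 (3745 and 4318) and Rpl35a (272 and 307) differed by −0.35, −0.21 and −0.17, beside probeset medians of −0.21, −0.05 and −0.13. The probeset behind the Rps20 cluster was the lowest of its 6. That of Rps27l (5349 and 6283) was itself the median probeset, at −0.23.

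The remaining clusters equalled no single probeset of their gene. Rplp0 had 236 with TGF-beta and 349 in untreated cells (−0.56), values among those of its 4 low probesets and below all 12 others, beside the probeset median of −0.02. Rpl10a was at −0.37 (1382 and 1783), beside −0.16 over 11 probesets. In Rpl8 (5092 and 6361, −0.32 beside −0.31), Rps9 (3723 and 4124, −0.15 beside −0.16) and Rps3 (4130 and 4715, −0.19 beside −0.13) the levels lay at most 0.06 apart. Rps24 (139 and 150.1, −0.11) and Rpl22 (124 and 131, −0.08) were nearer to 0 than their probesets, at −0.20 and −0.21. Rps15 and Rpl31 had clusters below the level rule, with 94.3 and 116 and with 14.0 and 20.3, at −0.30 and −0.51, beside −0.09 and −0.32 from probesets.

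Over the 13 members at level in both, the signs were the same in all 13 as deposited (all genes, 94.8%), but in 8 after centring (92.7%), 9 after quantile normalization (89.3%) and 11 with the lowess curve taken out (89.4%). After centring, the cluster of Rplp0 was at −0.29 and its probeset median at 0.22. The cluster was the lower value in 9 of 13 (all genes, 54.9%). The median gap was 0.13 in size, with 3 gaps over 0.5 (Rpl37, Rpl4 and Rplp0), while across all 7813 genes at level with both levels it was 0.05, and 275 were over 0.5. After quantile normalization the median gap was 0.085 in members and 0.094 in all genes, and with the lowess curve taken out 0.065 and 0.092, so that the wider gap of the members held only as deposited and after centring (0.113 and 0.065). The Pearson correlation between levels was −0.19 over the 13 members, or −0.30 without Rpl37 and Rpl4, and 0.96 over all genes. Both levels come from the same 2 arrays, and members span a narrow range, so these coefficients only describe the tables.

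**Figure D3:**
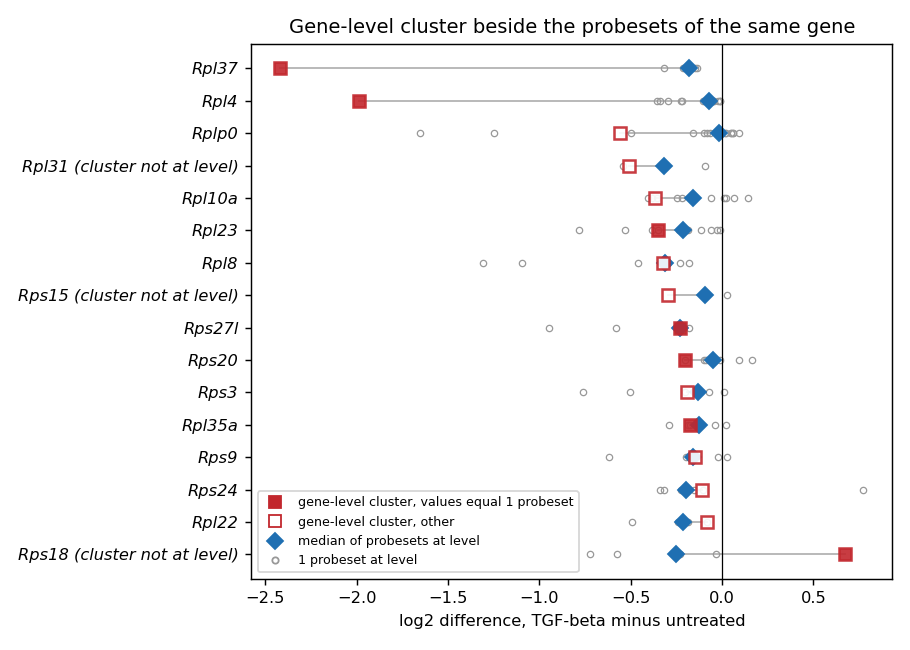
For 16 genes with both levels, the log2 difference (TGF-beta minus untreated) of the gene-level cluster (squares; filled where its values equal those of 1 probeset), the median of the probesets at level (diamonds) and each probeset at level (circles). The clusters of Rpl37 (−2.42) and Rpl4 (−1.99) lie far left of all probesets at level of their gene, and that of Rps18 (0.67) lies right of them.

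Beside other genes of translation, the ribosomal proteins lay close to the translation factors, and both lay above the mitochondrial ribosomal proteins and the assembly genes. These lists were described by counts, and no difference between them was tested. The order held with the lowess curve taken out, but the medians lay closer together than as deposited. They were then −0.12 for ribosomal proteins, −0.11 for translation factors, −0.28 for mitochondrial ribosomal proteins and −0.19 for assembly genes. The 17 translation factors and other TOP mRNAs had a probeset median of −0.16 (0.071 after centring). None was past 1.5-fold (all genes, 19.6% lower and 16.3% higher), although the gene-level cluster of Eif3e was at −0.63. The elongation factor Eef1a1 was at −0.01 ± 0.09 (SD, 12 probesets), with a median intensity of 14671 with TGF-beta and 14749 in untreated cells, and the initiation factor subunit Eif3e was lowest at −0.30, followed by Eif4b at −0.29, while Btf3, a chaperone of nascent chains, was highest at 0.02. The 4 further cytosolic ribosome genes with probesets had a median of −0.17 (0.06 after centring). Of these, Fau was at 0.03 ± 0.04, and Rpsa, of the small subunit, at −0.16 over 17 probesets, beside −0.69 from its gene-level cluster.

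The 75 mitochondrial ribosomal proteins, which serve the ribosome of the organelle, had a median of −0.51 (−0.27 after centring, −0.28 with the lowess curve taken out). Of these, 31 were at least 1.5-fold lower (all genes, 19.6%), 2 at least 2-fold lower (7.08%) and none 1.5-fold higher (16.3%). Mrps28 was lowest, with a median intensity of 356 with TGF-beta and 950 in untreated cells and a difference of −1.20 ± 0.31 (SD, 3 probesets), followed by Mrpl50 at −1.04. Mrps16 (0.18) and Mrpl57 (0.04) were highest. The 30 genes of ribosome assembly and RNA polymerase I had a median of −0.35 (−0.12 after centring), with 4 at least 1.5-fold lower (all genes, 19.6%). Among the 4 were the polymerase subunit Polr1e (−0.78 ± 0.29, 12 probesets) and the RNA acetyltransferase Nat10 (−0.75 ± 0.26, 29 probesets). Nop10 (0.19) and Gar1 (0.01), both of the particle that makes pseudouridine, were highest. The 15 S6 kinases and upstream regulators had a median of −0.36 (−0.12 after centring), and 3 of 15 were at least 1.5-fold lower, beside 19.6% of all genes. Rps6ka1, a kinase of the ERK pathway, was lowest, with a median intensity of 552 with TGF-beta and 1279 in untreated cells and a difference of −1.46 ± 0.67 (30 probesets). The S6 kinase Rps6kb1 followed at −0.69 ± 0.57 (15 probesets), while Eif4ebp1 was at −0.06 and Myc, a driver of ribosome synthesis, was highest at 0.21 ± 0.12 (4 probesets).

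**Figure D4:**
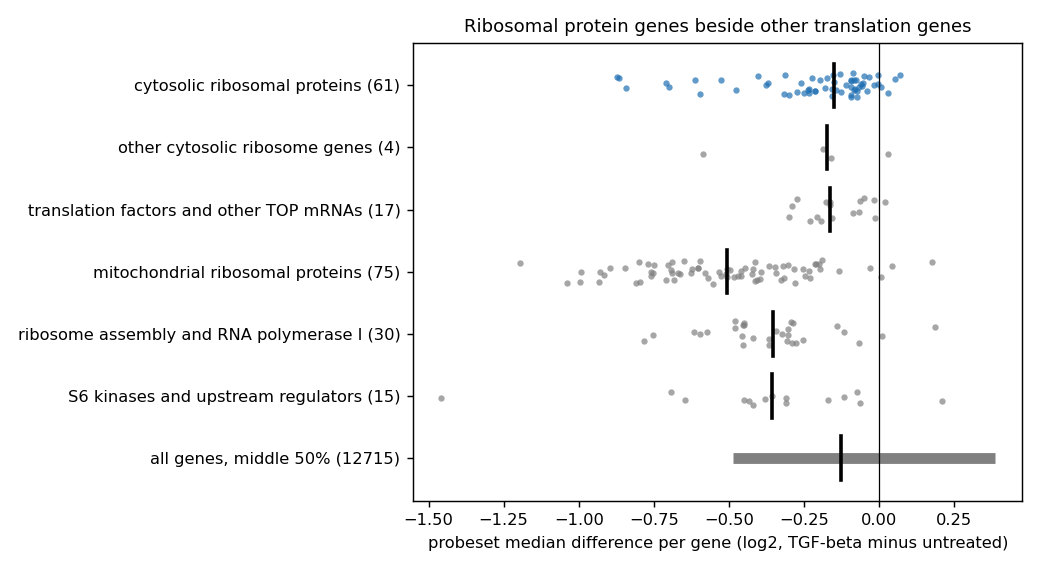
Probeset median difference per gene (log2, TGF-beta minus untreated) for the ribosomal protein genes (blue), 5 lists of other translation genes (grey) and, as a bar, the middle 50% of all genes; numbers of genes are in brackets and black lines mark medians. The medians are −0.15 for cytosolic and −0.51 for mitochondrial ribosomal proteins (0.085 and −0.27 after centring, −0.12 and −0.28 with the lowess curve taken out).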

How the data were processed

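The values were intensities on a linear scale that the authors had summarised per transcript cluster or per core probeset and deposited as a value table, 1 column per group and level. How background was corrected and arrays were normalized, with which software and on which build, is not given in the sources used here. Gene symbols came from the platform annotation, and rows with several symbols (33 clusters and 150 probesets that named a member) were left out. Values were used as log2(intensity + 1). Where a symbol had several clusters, that with the highest mean was used. Companion lists used symbols updated through RefSeq (GRCm38.p6, for names). Precision is limited by there being 1 array in each group, and no p-value was computed. Named members were the 6 highest and 6 lowest clusters, the 5 largest gaps, the stalk, paralogs and some genes of known role; others are said to be chosen later. Members and lists were chosen with earlier results of these data known. The functions were tested on simulated data (Python 3.11.15, pandas 2.3.3, statsmodels 0.14.6 with a lowess fraction of 0.3). Alternatives were other level rules, a pseudocount of 16, centring, quantile normalization, lowess removal, other probeset summaries and other symbol rules.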

Additional observations from a re-analysis of the deposited data

How the results depend on the processing

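With 1 array per group, no replicate could be left out, and no paired analysis was possible because each group holds a single sample. A value was taken as unmoved when it changed by less than 0.228, the median SD between probesets of a member. Centring turned the median of the members from below to above 0 at gene level (0.055) and at exon level (0.085), and likewise those of the other cytosolic ribosome genes (0.06) and the translation factors (0.071); it moved the medians of mitochondrial ribosomal proteins to −0.27, of assembly genes to −0.12 and of S6 kinases and regulators to −0.12. The median of all genes after centring was −0.0015 at gene level and 0.11 at exon level. Quantile normalization and lowess removal kept the medians of the members and of all these lists below 0. Of 61 members, 7 were at least 1.5-fold lower (all genes, 19.6%), but 3 after centring (11.0%), 4 after quantile normalization (10.6%) and 4 after lowess removal (10.5%). The share of all genes thus fell as well. With probesets of a mean intensity of at least 1000, an alternative chosen after the data were seen, 3 members were left, and the share of all genes is not given. Without a level rule 1 of 65 members, Rps13, was 2-fold lower by probeset median, and the share of all genes is not given. Rps13 rested on 1 probeset below the level rule, with 54.1 with TGF-beta and 126 in untreated cells. Without the rule 2 of 19 clusters were 1.5-fold higher, beside 1681 of all 23332 clusters, including those without a single symbol. With the level rule at the 75th percentile 7 clusters were left, of which 0 were 1.5-fold lower, 0 2-fold lower and 0 1.5-fold higher. The shares of all genes under that rule are not given. Under the other alternatives the member median stayed between −0.23 and −0.14 at gene level and between −0.20 and −0.09 at exon level. The median gap between levels ran from 0.065 to 0.18. Centring takes the same constant from every row of a level (−0.23 at exon level, larger in size than 0.228). Its shifts of the medians therefore follow from arithmetic and say nothing about single lists. The cause of the other changes was not tested. No detection value was used, so signal near the level rule cannot be told from background.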

Other observations

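Probesets that named a ribosomal protein beside another gene or a copy of it were not members, and 144 of the 150 were at level. Their median difference was −0.15, with 14 at least 1.5-fold lower and 0 1.5-fold higher, beside −0.14, 45 and 1 for the 348 member probesets at level. Of all probesets at level with 1 symbol, 27.4% were at least 1.5-fold lower and 9.49% at least 1.5-fold higher.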
